A study of Mus musculus with 4 samples.

Results

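Calcitonin gene-related peptide (CGRP) is a neuropeptide that is best known from sensory nerves and that acts on group 2 innate lymphoid cells (ILC2), tissue lymphocytes that make type 2 cytokines. The genes described here are Calca, which encodes the precursor of CGRP, and Calcrl, Ramp1 and Ramp3, which encode the parts of its receptors. They were chosen by name, with earlier results of these data known, and no measured value enters the rule. All 4 had a row among the 11352 named rows for genes on the first of the study's plates. The study sorted single ILC2 from mouse pancreas (genotype given as C57BL6J) into 384-well plates for SORT-seq, a plate method derived from CEL-seq2 in which messages are read from their 3' ends.

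All sorted cells carried KIKR, a fluorescent protein that changes from green to red in cells exposed to violet light, and the sort record gives the colour of every well. The compared groups on plate 1 were 12 wells with a photoconverted (KIKR-Red) cell, 151 wells with a non-photoconverted (KIKR-Green) cell and 221 empty wells. The labels give no age, sex, number of animals, feeding state or time after photoconversion, and do not say which tissue was exposed to light. Both colours of cell share the mouse line, the tissue, the sort and the plate.

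Each well held read counts and not counts of molecules. Plate 1 held 52614294 reads, of which 43.2% fell in spike-in rows and 5.63% in mitochondrial rows. On plates 2 to 4 the rows with spike-in names held between 0.113% and 44.1% of reads and the rows with mitochondrial names at most 0.0531%, so the row names could not be relied on for those plates and they were not used. A cell needed at least 500 genes with a read and under 25% mitochondrial reads, which kept 8 photoconverted and 98 non-photoconverted cells. The photoconverted cells had a median of 540662 reads of genes (56539 to 1677643) and 2748.5 genes, against 187690 reads (17825 to 1274117) and 1637 genes in non-photoconverted cells. Empty wells had a median of 353 reads and 92 genes.

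Because the photoconverted cells were covered more deeply, each was also set beside the 5 non-photoconverted cells nearest to it in number of genes. These depth-matched cells were 29 distinct cells with a weighted median of 2718.5 genes and 483926 reads. A gene counted as detected in a well at 16 or more reads. Levels are CPM, the reads of a gene scaled to a common total of reads of genes per cell, with spike-ins left out. Plate 1 gives 1 sample of each colour, so no test between colours was possible, and no p-value is given. Exact (Clopper-Pearson) 95% intervals cover counting error of cells only. The weighted shares of matched cells carry counting error too, for which no interval is given.

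The sorted cells carried markers of ILC2, at unequal frequency. Each of the 12 markers on the list used was detected in at least 1 cell. The most frequent were the transcription factor Gata3 (90 of 106 cells) and the interleukin-33 receptor Il1rl1 (76 of 106 cells). The least frequent were Rora (8 of 106), Il5 (30 of 106) and Thy1 (36 of 106). At least 3 of them were detected in 8 of 8 photoconverted and 83 of 98 non-photoconverted cells. Their summed level ran from 5355 to 18465 CPM in photoconverted cells and from 707 to 25220 CPM in non-photoconverted cells.

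CGRP signals through a receptor of at least 2 proteins. Calcrl encodes a receptor with a membrane-spanning core that couples to the G protein Gs and raises cyclic AMP, and it reaches the cell surface and recognises its ligand together with a receptor activity-modifying protein. With the product of Ramp1 it forms the classical CGRP receptor, and with that of Ramp3 it forms a receptor for adrenomedullin that also binds CGRP. In mouse ILC2, CGRP is known both as a signal received from nerves and as a product of the cells themselves.

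The Calca gene carries 2 hormones in alternative last coding exons, and they are shown because the deposited gene count does not separate them. Calca lies on chromosome 7 from 114631478 to 114636357 on the minus strand (GRCm38, GENCODE M21) and has 7 annotated transcripts, 6 of them coding. The coding parts of exon 4 in 2 of these transcripts, read from the mm10 genome on the transcribed strand, follow with the codons of the mature peptide in capitals. The first lies at chr7:114632443-114632599 and holds the 37 codons of CGRP, and the second lies at chr7:114633605-114633785 and holds the 32 codons of calcitonin.
Calca-201 (CGRP): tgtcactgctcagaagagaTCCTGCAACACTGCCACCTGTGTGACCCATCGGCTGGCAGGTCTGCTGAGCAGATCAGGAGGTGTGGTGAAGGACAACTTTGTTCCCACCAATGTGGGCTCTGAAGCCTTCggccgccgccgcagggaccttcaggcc
Calca-202 (calcitonin): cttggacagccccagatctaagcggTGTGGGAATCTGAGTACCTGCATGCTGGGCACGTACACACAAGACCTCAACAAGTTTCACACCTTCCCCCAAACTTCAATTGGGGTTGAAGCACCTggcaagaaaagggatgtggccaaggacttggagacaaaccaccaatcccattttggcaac
In both, the capitals are followed by a glycine codon (ggc) and codons of basic residues, the place where the precursor is cut and the peptide amidated. A read counted for Calca could come from a transcript with either exon, so every value below is for the gene and not for CGRP messenger RNA alone.

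The 3 receptor genes lie on other chromosomes. Calcrl lies on chromosome 2 from 84330626 to 84425411 on the minus strand, Ramp1 on chromosome 1 from 91179822 to 91225196 on the plus strand, and Ramp3 on chromosome 11 from 6658521 to 6677475 on the plus strand.

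The 4 genes differed in how many cells held them. Among non-photoconverted cells Calca was the most frequent, Ramp3 and Ramp1 came next with intervals that overlapped, and Calcrl was the rarest. The share with detection was higher in photoconverted than in depth-matched cells for each of them, by 32.5 percentage points for Calca and for Ramp3, by 25 points for Calcrl and by 12.5 points for Ramp1. In the same comparison 12.5% of the 3188 genes detected in at least 10% of cells were 25 points or more higher in photoconverted cells, 5.8% were 25 points or more lower, and the median gene was 2.5 points higher. A higher share of any size was found for 54.4% of these genes and a lower share for 38.6%. With 8 photoconverted cells, the exact interval of each of the 4 shares took in the share of the depth-matched cells, so at this setting none of the 4 differences was larger than counting error allows.

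**Figure D1:**
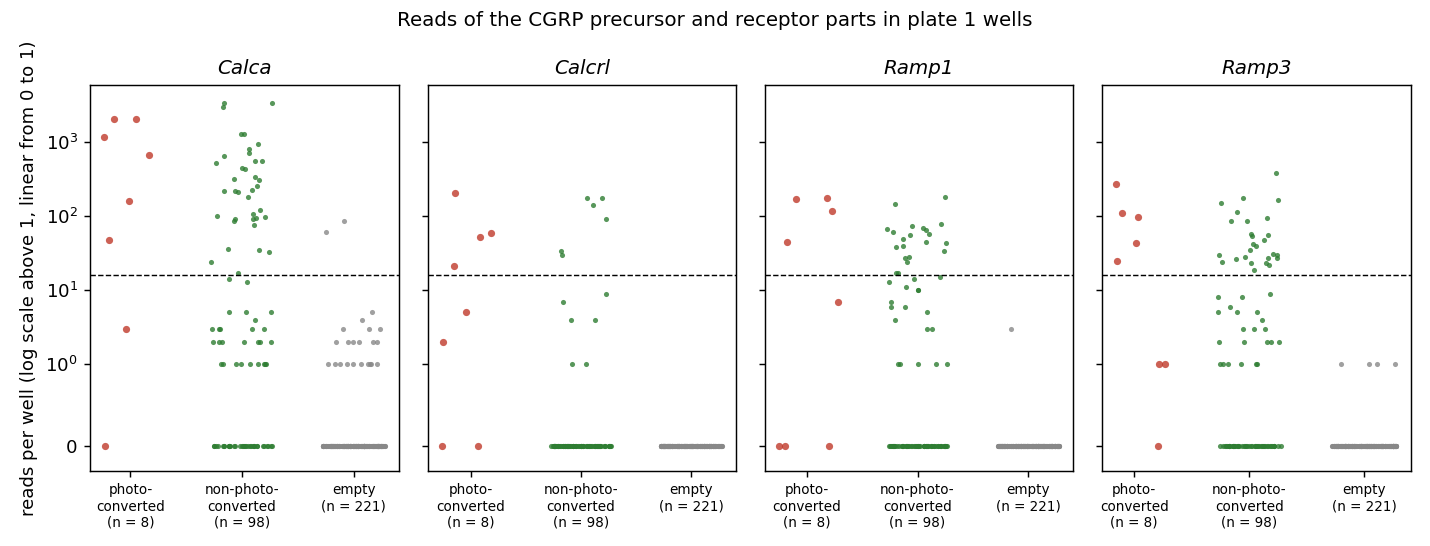
Reads of Calca, Calcrl, Ramp1 and Ramp3 in each well of plate 1 (vertical axis, log scale above 1 and linear from 0 to 1) for photoconverted cells, non-photoconverted cells and empty wells, with 1 point per well and a dashed line at 16 reads. Calca reaches 2080 reads in photoconverted cells and 3400 in non-photoconverted cells, and 2 of 221 empty wells lie above the line for Calca and none for the other genes.

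Calca, the ligand gene, was detected in 6 of 8 photoconverted cells (75%, interval 34.9% to 96.8%), against 42.5% of depth-matched cells and 37 of 98 non-photoconverted cells (37.8%, 28.2% to 48.1%). The 8 photoconverted cells held 0, 3, 48, 159, 679, 1167, 2071 and 2080 Calca reads. The 98 non-photoconverted cells held between 0 and 3400 reads with a median of 2. The ranges overlapped, and non-photoconverted cells with 3400, 3391 and 2998 reads were above every photoconverted cell.

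Calca was an abundant transcript in the cells that held it. Among cells with 16 or more reads, its median was 1213 CPM in the 6 photoconverted cells (151 to 5321 CPM) and 1257 CPM in the 37 non-photoconverted cells (25.7 to 11116 CPM). These medians lay close together and the ranges overlapped. Over all cells, those without Calca included, mean Calca was 1330 CPM in photoconverted, 977 CPM in depth-matched and 921 CPM in all non-photoconverted cells. The log2 ratio of the photoconverted to the depth-matched mean, with 10 CPM added to each, was 0.44. It was -0.21 without photoconverted cell 2, which held 5321 CPM, so that cell alone set its sign.

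Calca was also the member with most reads in empty wells. At 16 reads it was found in 2 of 221 empty wells (0.905%), and at 1 read in 23 of 221 (10.4%), against 7 of 8 photoconverted and 64 of 98 non-photoconverted cells. The share of non-photoconverted cells at 16 reads was thus far above the empty wells, while counts of 1 to 15 Calca reads, found in 1 photoconverted and 27 non-photoconverted cells, also occurred in 21 empty wells and were not read as detection.

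Calcrl, the core of the receptor, was detected in 4 of 8 photoconverted cells (50%, 15.7% to 84.3%), against 25% of depth-matched and 6 of 98 non-photoconverted cells (6.12%, 2.28% to 12.9%). It was found in 0 of 221 empty wells at 1 read, which allows a share of up to 1.36%. The photoconverted cells held 0, 0, 2, 5, 21, 53, 59 and 206 Calcrl reads. Of the non-photoconverted cells 86 held 0 reads, and the 6 with detection held 30, 34, 91, 143, 175 and 176 reads. The 2 groups overlapped: the cell with most Calcrl reads was photoconverted, and the next 3 were not.

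The contrast between Calcrl in photoconverted and all non-photoconverted cells was the widest of the 4 genes, and it was narrower after depth matching. Without matching the difference was 43.9 percentage points, and the intervals of the shares did not overlap. Detection of Calcrl followed the number of genes per cell: it was found in 0 of the 33 non-photoconverted cells with the fewest genes (502 to 1194), in 1 of the next 33 (1220 to 2026) and in 5 of the 32 with the most (2067 to 4480). Calcrl was detected in 5 of the 29 distinct depth-matched cells.

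The level of Calcrl gave no clear difference. Mean Calcrl was 138 CPM in photoconverted, 49.7 CPM in depth-matched and 19.8 CPM in all non-photoconverted cells, a log2 ratio of 1.31 to the depth-matched mean. Photoconverted cell 5 alone held 873 CPM, and without it the log2 ratio was -0.63. Calcrl was detected in fewer than 10% of all cells that passed, so it was not among the 3188 genes of the background. At 64 or more reads Calcrl was found in 12.5% of photoconverted and 17.5% of depth-matched cells, and the difference turned to -5 points.

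Ramp1, the partner that completes the classical CGRP receptor, was detected in 4 of 8 photoconverted cells (50%, 15.7% to 84.3%), against 37.5% of depth-matched and 21 of 98 non-photoconverted cells (21.4%, 13.8% to 30.9%). The photoconverted cells held 0, 0, 0, 7, 45, 118, 173 and 179 Ramp1 reads, and the non-photoconverted cells between 0 and 184 with a median of 0. The highest cells of both colours were within a few reads of each other. At 1 read Ramp1 was found in 5 of 8 photoconverted cells, 39 of 98 non-photoconverted cells and 1 of 221 empty wells.

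Where Ramp1 was detected, its median was 186 CPM in photoconverted cells (26.8 to 458 CPM) and 191 CPM in non-photoconverted cells (33.7 to 804 CPM). Mean Ramp1 over all cells was 111 CPM in photoconverted, 43.7 CPM in depth-matched and 61.6 CPM in all non-photoconverted cells, a log2 ratio of 1.17 to the depth-matched mean. A mean 2-fold or more higher in photoconverted cells was found for 11.4% of the 3188 background genes, and one 2-fold or more lower for 26.5%, with a median log2 ratio of -0.27. The log2 ratio of Ramp1 lay between 0.65 and 1.38 when any 1 photoconverted cell was left out.

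Ramp3, which with Calcrl makes an adrenomedullin receptor that also binds CGRP, was detected in 5 of 8 photoconverted cells (62.5%, 24.5% to 91.5%), against 30% of depth-matched and 27 of 98 non-photoconverted cells (27.6%, 19.0% to 37.5%). The photoconverted cells held 0, 1, 1, 25, 43, 97, 112 and 277 Ramp3 reads. The non-photoconverted cells held between 0 and 381, with a median of 0.5. The highest value was in a non-photoconverted cell, and the groups overlapped.

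In cells with detection the median of Ramp3 was 181 CPM in photoconverted cells (25.6 to 264 CPM) and 131 CPM in non-photoconverted cells (31.5 to 878 CPM). Mean Ramp3 was 91.3 CPM in photoconverted, 47.3 CPM in depth-matched and 83.8 CPM in all non-photoconverted cells. The log2 ratio was 0.82 to the depth-matched mean and 0.11 to the mean of all non-photoconverted cells. At 1 read Ramp3 was found in 7 of 8 photoconverted cells, 49 of 98 non-photoconverted cells and 4 of 221 empty wells, and no empty well held more than 1 read.

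**Figure D2:**
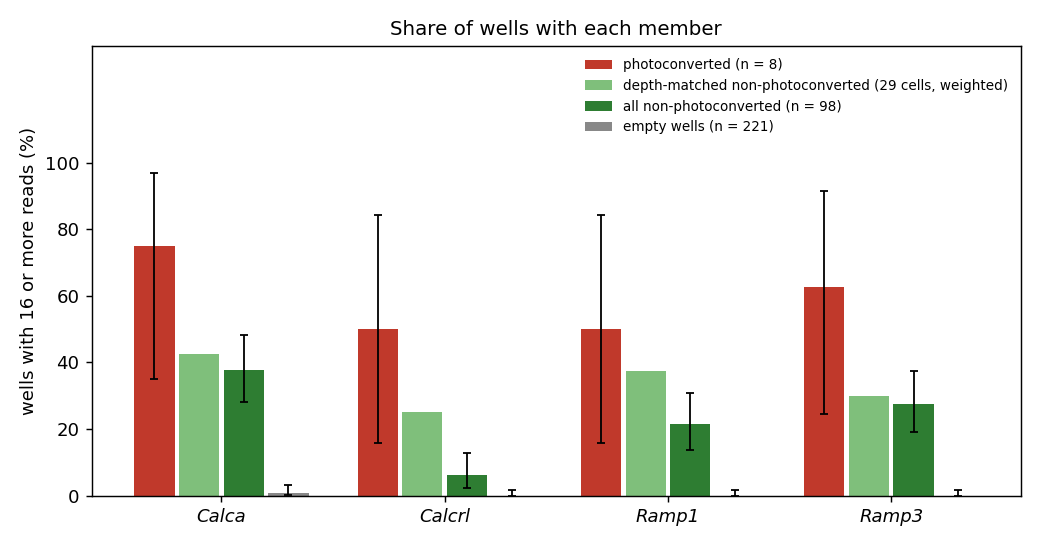
Share of wells with 16 or more reads of each gene (vertical axis, %) in photoconverted cells, depth-matched non-photoconverted cells, all non-photoconverted cells and empty wells, with exact 95% intervals for the unweighted shares. The interval of each photoconverted share takes in the depth-matched share, for example 34.9% to 96.8% against 42.5% for Calca.

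**Figure D3:**
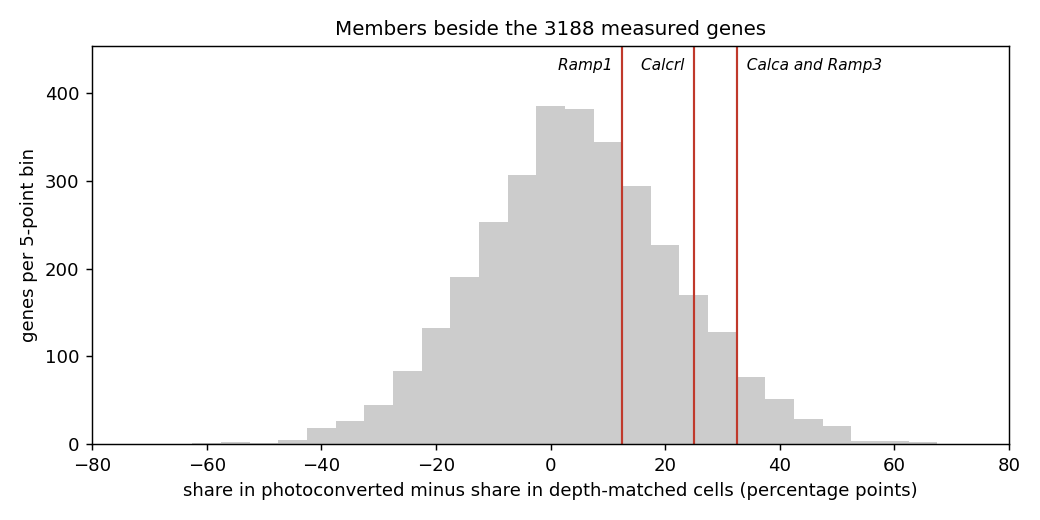
Difference in the share of cells with a gene, photoconverted minus depth-matched (horizontal axis, percentage points), for the 3188 genes detected in at least 10% of cells (grey bars, genes per 5-point bin), with red lines for the 4 members. Calca and Ramp3 stand at 32.5 points, Calcrl (not itself in the grey bars) at 25 and Ramp1 at 12.5, all to the right of the median gene at 2.5 points and within the spread of the other genes.

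Detection depended on depth for all 4 genes, in different patterns. In the non-photoconverted cells with the fewest, the next and the most genes, Calca was detected in 6 of 33, 17 of 33 and 14 of 32 cells. Ramp3 was detected in 3 of 33, 11 of 33 and 13 of 32 cells. Ramp1 was detected in 5 of 33, 3 of 33 and 13 of 32 cells. Calca was thus found as often in cells of middle depth as in the deepest cells, while most of the cells with Ramp1 were among the deepest.

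The combination of members in the same cell shows which ligand and receptor genes were detected together. A gene that was not detected may still be expressed, and reads do not show an assembled receptor. At least 1 of the 4 genes was detected in 8 of 8 photoconverted cells, against 67.5% of depth-matched and 60 of 98 non-photoconverted cells (61.2%). None of the 4 was found in 38 non-photoconverted cells. Calca alone was the most frequent state with a member, with 1 photoconverted and 18 non-photoconverted cells, followed among non-photoconverted cells by Calca with Ramp3 and by Ramp1 alone, with 10 cells each.

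**Figure D4:**
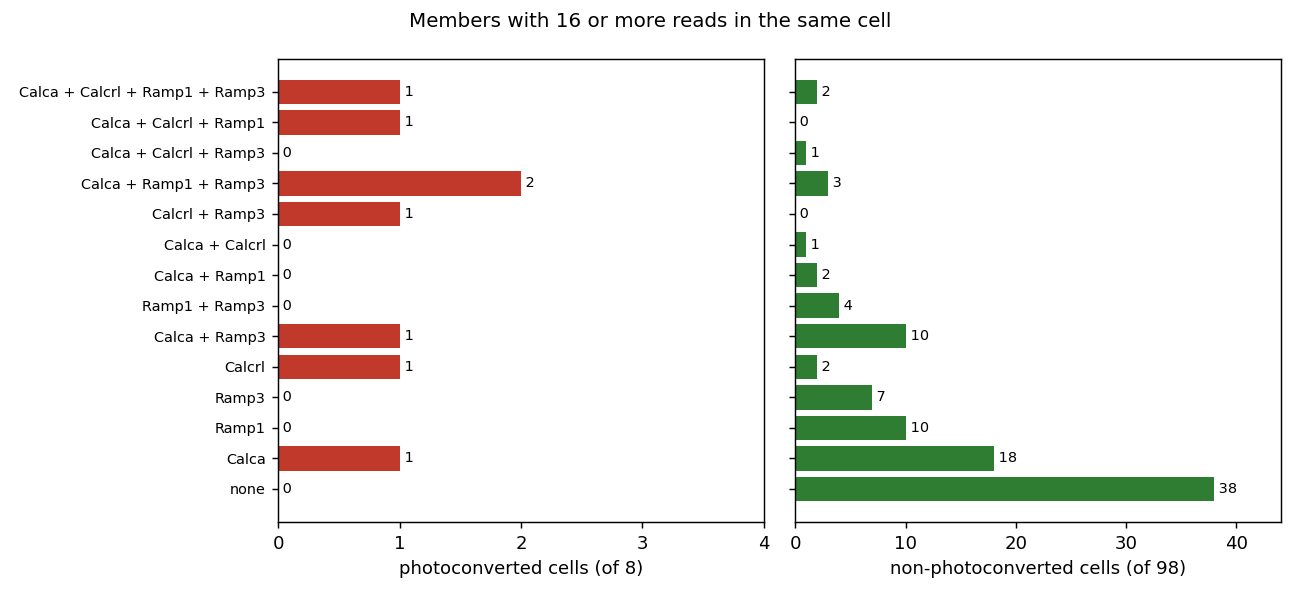
Number of photoconverted cells (left, of 8) and non-photoconverted cells (right, of 98) with each combination of members at 16 or more reads. No member was found in 38 non-photoconverted cells, and all 4 members were found together in 1 photoconverted and 2 non-photoconverted cells.

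The genes of a complete receptor, Calcrl with Ramp1 or Ramp3, were detected together in few cells. They were found in 3 of 8 photoconverted cells (37.5%, 8.52% to 75.5%), against 10% of depth-matched and 3 of 98 non-photoconverted cells (3.06%, 0.636% to 8.69%). The pair of Calcrl and Ramp1 was found in 2 of 8 photoconverted and 2 of 98 non-photoconverted cells, and the pair of Calcrl and Ramp3 in 2 of 8 photoconverted and 3 of 98 non-photoconverted cells. The reverse state was frequent: Ramp1 or Ramp3 without Calcrl was found in 3 of 8 photoconverted cells, 35% of depth-matched cells and 36 of 98 non-photoconverted cells (36.7%). With a limit of 1 read the genes of a complete receptor were found in 5 of 8 photoconverted and 10 of 98 non-photoconverted cells, so this share depended on the read limit.

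The single cells show how the receptor parts were combined. Photoconverted cell 7 held all 4 genes, with 159 Calca, 53 Calcrl, 173 Ramp1 and 277 Ramp3 reads. Photoconverted cell 3 held 679 Calca, 59 Calcrl and 118 Ramp1 reads and 1 read of Ramp3, which is the ligand gene with the genes of the classical CGRP receptor. Photoconverted cell 6 held 21 Calcrl and 97 Ramp3 reads with 3 reads of Calca, and photoconverted cell 5 held 206 Calcrl reads with 7 reads of Ramp1, 1 of Ramp3 and 0 of Calca. The photoconverted cells with most Calca, cells 2 and 4, held 2080 and 2071 Calca reads and 0 and 5 Calcrl reads, with both Ramp genes at 25 reads or more. Photoconverted cell 1 held 1167 Calca and 112 Ramp3 reads, and cell 8, the shallowest, held 48 Calca and 2 Calcrl reads.

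Among non-photoconverted cells, the 6 with Calcrl were as mixed. The 2 cells with all 4 genes held 1303 and 109 Calca reads, 34 and 176 Calcrl reads, 43 and 28 Ramp1 reads and 381 and 19 Ramp3 reads. Of the other 4, one held 257 Calca, 143 Calcrl and 48 Ramp3 reads with 13 of Ramp1. Another of them held 722 Calca and 30 Calcrl reads with 1 read of Ramp1 and none of Ramp3. The last 2 held 175 and 91 Calcrl reads with at most 6 reads of any other member. Calca and the genes of a complete receptor were thus detected together in 2 of 8 photoconverted cells, 10% of depth-matched cells and 3 of 98 non-photoconverted cells.

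To see whether members went together beyond what depth gives, non-photoconverted cells with one gene were set beside the depth-matched non-photoconverted cells without it. Neither partner was found more often in cells with Calcrl than in matched cells without it. Ramp1 was detected in 2 of 6 cells with Calcrl (33.3%, 4.33% to 77.7%), against 46.7% of matched cells without Calcrl. Ramp3 was detected in 3 of 6 cells with Calcrl (50%, 11.8% to 88.2%), against 53.3% of matched cells without it. With 6 cells these intervals are wide, and both directions changed with the setting (at 4 reads the Ramp1 difference was 10 points, and with 2 nearest cells the Ramp3 difference was 25 points). Of the genes measured, 16.7% were 25 points or more higher in the cells with Calcrl.

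Ramp3 was the receptor gene with the largest difference between cells with and without the ligand gene. Ramp3 was detected in 16 of 37 cells with Calca (43.2%, 27.1% to 60.5%), against 25.4% of matched cells without Calca, a difference of 17.8 points. The interval lay above this matched share, but it took in the 29.7% found with 2 nearest cells. With limits of 4 reads (48.8% against 36.3%) and 64 reads (15.6% against 6.88%) the interval also took in the matched share. Turned round, Calca was detected in 16 of 27 cells with Ramp3 (59.3%, 38.8% to 77.6%), against 40.7% of matched cells without Ramp3, and that interval took in the matched share. Calcrl was detected in 4 of 37 cells with Calca (10.8%, 3.03% to 25.4%), against 8.11% of matched cells. Ramp1 was detected in 7 of 37 cells with Calca (18.9%, 7.96% to 35.2%), against 23.8% of matched cells. A difference of 25 points or more was rare around Calca, at 0.408% of 3187 genes, and 97.7% of them had a smaller difference than Ramp3. The Ramp3 difference stayed positive, between 8.75 and 25.2 points, under all 7 other settings. In photoconverted cells Ramp3 was found in 4 of 6 cells with Calca and in 1 of 2 without.

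The Ramp genes were also set beside each other. Ramp3 was detected in 9 of 21 non-photoconverted cells with Ramp1 (42.9%, 21.8% to 66.0%), against 23.8% of matched cells without Ramp1, and the interval took in the matched share. In the other direction Ramp1 was detected in 9 of 27 cells with Ramp3 (33.3%), against 17.8% of matched cells without Ramp3. Genes 25 points or more higher made up 1.6% around Ramp1 and 1.82% around Ramp3. In photoconverted cells Ramp3 was found in 3 of 4 cells with Ramp1 and in 2 of 4 without.

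**Figure D5:**
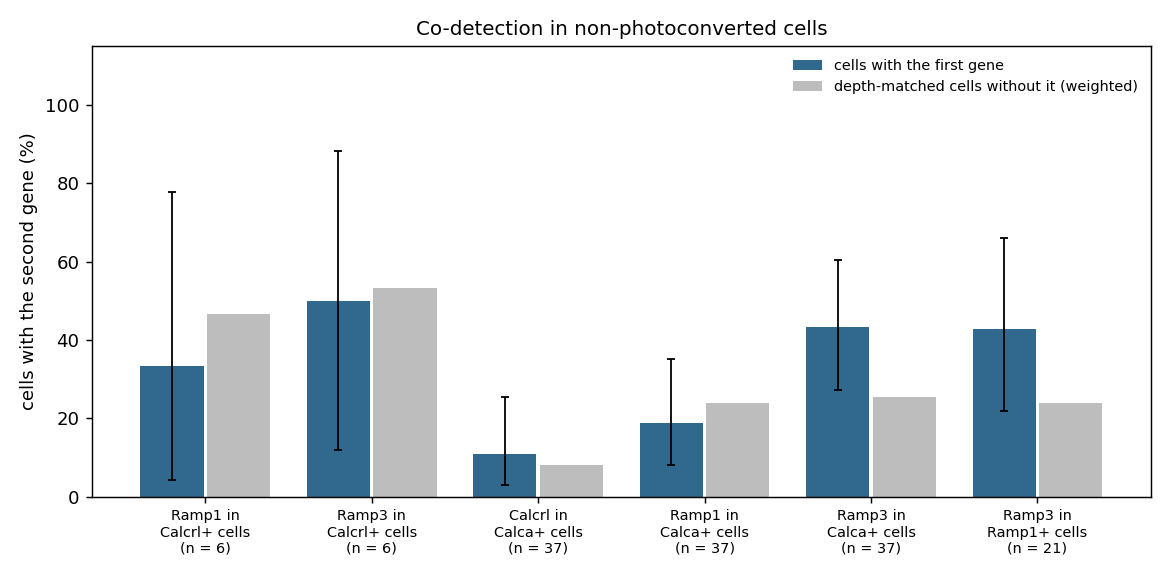
Share of non-photoconverted cells with the second gene (vertical axis, %) in cells with the first gene (blue, with exact 95% intervals) and in depth-matched cells without it (grey, weighted), for 6 pairs. Ramp3 in cells with Calca (43.2% against 25.4%) is the pair drawn whose interval of 27.1% to 60.5% lies above the matched share, which has counting error of its own. This did not hold with 2 nearest cells (29.7%), with limits of 4 or 64 reads, or for Calca in cells with Ramp3 (38.8% to 77.6% against 40.7%).

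The relatives of CGRP and of its receptor with a row were each detected in at most 4 of 98 non-photoconverted cells and in no photoconverted cell. Calcb, the gene of the second CGRP, was detected in 0 of 8 photoconverted and 0 of 98 non-photoconverted cells, and Adm, the adrenomedullin precursor, in 0 of 8 and 1 of 98. Ramp2, whose product makes the main adrenomedullin receptor with that of Calcrl, was detected in no cell of either colour and held reads in 1 non-photoconverted cell. Crcp, which encodes a small protein that couples the CGRP receptor to its signalling pathway and is also a subunit of RNA polymerase III, was detected in 0 of 8 photoconverted and 4 of 98 non-photoconverted cells. A count of 0 in 98 cells allows a share of up to 3.06%. The genes Adm2, Iapp, Calcr and Ackr3 had no row on plate 1 and were not analysed here.

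Of the Gs and cyclic AMP pathway below the receptor, 8 of 16 listed genes were detected in at least 10% of cells. Of these, 3 had a higher share in photoconverted than in depth-matched cells, 4 a lower one and 1 the same, with a median of -3.75 points beside 2.5 for all genes. Of all genes 54.4% had a higher share and 38.6% a lower one. Gnas, which encodes the stimulatory G protein, was detected in 7 of 8 photoconverted cells, against 97.5% of depth-matched cells. The cyclic AMP-dependent kinase subunit Prkacb was the 1 gene 25 points higher, at 5 of 8 photoconverted cells against 37.5%. That is the same share of the 8 as the 12.5% of all genes. Mean Prkacb was 626 CPM in photoconverted, 152 CPM in depth-matched and 491 CPM in all non-photoconverted cells. The adenylyl cyclase Adcy7 was found in 3 of 8 against 32.5%, the kinase subunit Prkaca in 1 of 8 against 20%, and the regulatory subunit Prkar1a in 6 of 8 against 92.5%. The transcription factor Creb1 was found in 1 of 8 photoconverted cells against 25% of depth-matched cells, its relative Atf1 in 2 of 8 against 17.5%, and the coactivator Crtc3 in 3 of 8 against 37.5%.

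Of 14 listed genes that limit cyclic AMP or switch receptors off, 8 were measured. Of these, 4 had a higher share, 3 a lower one and 1 the same, near the 54.4% higher and 38.6% lower of all genes. The median was 1.25 points. In mean level 4 of the 8 were 2-fold or more lower, where 26.5% of all genes were, and 0 were 2-fold or more higher. Pde3b, a phosphodiesterase that breaks down cyclic AMP, was detected in 5 of 8 photoconverted cells against 20% of depth-matched cells, a difference of 42.5 points. It was the 1 gene 25 points or more higher, the same share of the 8 as the 12.5% of all genes. The phosphodiesterases Pde4b (3 of 8 against 37.5%) and Pde7a (2 of 8 against 30%) did not follow it. Rgs1, a brake on G protein signalling, was found in 3 of 8 photoconverted cells against 50%, with means of 45.2 CPM in photoconverted and 223 CPM in depth-matched cells, and Rgs2 in 8 of 8 against 82.5%. The arrestin Arrb2 was found in 3 of 8 against 35%, and the receptor kinase Grk6 in 3 of 8 against 45%.

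Genes on a list of CREB targets, which cyclic AMP switches on, were mixed as well. Of the 9 measured of 12 listed, none was 25 points apart, where 12.5% of all genes were that much higher and 5.8% that much lower. Of the 9, 6 had a larger share in photoconverted cells and 3 a smaller one, beside 54.4% and 38.6% of all genes, with a median of 7.5 points. Crem, a CREB-family repressor that cyclic AMP induces, was detected in 5 of 8 photoconverted cells against 55% of depth-matched cells, and Nr4a1, an early-response nuclear receptor, in 8 of 8 against 92.5%. Fos was detected in 5 of 8 against 85%, a difference of -22.5 points, and Bhlhe40 in 4 of 8 against 67.5%. The other 5 were Per1 (3 of 8 against 27.5%), Fosb (4 of 8 against 52.5%), Junb (8 of 8 against 97.5%), Dusp1 (7 of 8 against 80%) and Sik1 (3 of 8 against 25%).

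Of the enzymes that turn a peptide precursor into a hormone, 1 was frequent. Furin, a general convertase of the secretory pathway, was detected in 6 of 8 photoconverted cells against 40% of depth-matched cells (35 points). Of all genes 12.5% were 25 points or more higher. Mean Furin was 738 CPM in photoconverted, 225 CPM in depth-matched and 535 CPM in all non-photoconverted cells. Pcsk1, the convertase of endocrine cells and neurons, was detected in 1 photoconverted and 1 non-photoconverted cell. Cpe, which trims basic residues, was detected in 0 photoconverted and 1 non-photoconverted cell, and Pam, which amidates peptides such as CGRP, in no cell of either colour. Pcsk7 was found in 2 of 8 photoconverted cells against 17.5% of depth-matched cells.

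Other receptors through which nerves and tissue signals reach ILC2 were mostly rare. Ptgir, the prostacyclin receptor, was detected in 5 of 8 photoconverted cells against 40% of depth-matched cells, and Adora2a, an adenosine receptor, in 2 of 8 against 20%. The neuromedin U receptor Nmur1 was found in 0 photoconverted and 1 non-photoconverted cell, and the vasoactive intestinal peptide receptor Vipr2 in 1 and 2. Calcrl, at 4 of 8 photoconverted and 6 of 98 non-photoconverted cells, was thus detected in more cells than Nmur1 or Vipr2. Ptger4, also on the list, was found in more non-photoconverted cells than Calcrl, at 9 of 98. It was found in 0 of 8 photoconverted cells against 22.5% of depth-matched cells.

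By a fixed rule, the genes most like each member were the 5 with the highest partial Pearson correlation of log2(CPM + 10) given the number of genes, over the 98 non-photoconverted cells and 2867 eligible genes. The points are cells of 1 plate that share a library, so these values describe and do not test. The genes were picked in these same cells. A high co-detection there, here and for the other members, thus follows in part from the choice and adds no support. For Ramp3 the first gene was Dgat1, a diacylglycerol acyltransferase of triglyceride synthesis, at r = 0.54, followed by Ttc3 (0.42), Unc45a (0.41), the transcription factor Ets2 (0.40) and Birc3 (0.35), a ubiquitin ligase of the NF-kappaB pathway. Dgat1 was detected in 25 of 27 cells with Ramp3, against 32.6% of depth-matched cells without it, and Birc3 in 19 of 27 against 17.0%. In photoconverted cells Dgat1 was found in 3 of 5 cells with Ramp3 and in 2 of 3 without, so the pattern did not show there.

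For Calca the 5 genes were Abhd17b (0.40), a depalmitoylating enzyme, Ctla2a (0.35), a protease inhibitor, Commd4 (0.34), Csf2 (0.34), which encodes the cytokine GM-CSF, and Birc3 (0.33). Csf2 was detected in 21 of 37 non-photoconverted cells with Calca, against 40.5% of depth-matched cells without it, and in 5 of 6 photoconverted cells with Calca and 1 of 2 without. For Ramp1 they were Panx1 (0.38), a channel that releases ATP, and Atf1, Epb4.1, Lypla2 and Eif3d (0.32 to 0.33). For Calcrl they were Lrrc2, Taf4a, Ctbp1, Hpcal1 and Ctsz (0.38 to 0.40), which rest on 6 cells. Among the members themselves the highest value was 0.21, between Calca and Ramp3, and the lowest was -0.14, between Calca and Ramp1.

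Markers of cells that could bring these transcripts with them were looked up in the same cells. Of 7 neuronal or glial markers only Uchl1 had a row, and it was detected in 1 cell, which held none of the 4 genes at 16 reads. Of 7 endothelial markers only Pecam1 had a row. It was detected in 0 of 8 photoconverted and 9 of 98 non-photoconverted cells, 8 of which held Calca, 1 Calcrl, 3 Ramp1 and 3 Ramp3, and its level ran from 0 to 1.19 CPM in photoconverted cells and from 0 to 1870 CPM in non-photoconverted cells. Of 7 endocrine markers only Pcsk1 had a row, and the 2 cells with it held Calca. The 3 acinar markers with a row (Cpa1, Cela2a and Ctrb1) were detected in no cell. Of the T cell markers Cd3e was detected in no cell, Cd3d in 1 photoconverted and 2 non-photoconverted cells and Cd3g in 2 and 9. Of the 2 photoconverted and 10 non-photoconverted cells with a T cell marker, 4 held Calca, 1 Calcrl, 5 Ramp1 and 6 Ramp3. Of the B cell markers only Cd79b had a row, and it was detected in 0 photoconverted and 5 non-photoconverted cells, 4 of which held Ramp3, 2 Calca, 2 Ramp1 and 1 Calcrl. Of the myeloid markers only Cd68 had a row, and it was detected in 1 photoconverted cell, which held Calca, Ramp1 and Ramp3. The part of these cell types in the results was not tested.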

How the data were processed

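Raw read counts per well were deposited for each named row, beside the sort colour and red fluorescence of the well, an intensity in arbitrary units per the file headers. Libraries followed SORT-seq, which builds on CEL-seq2, per the labels. The submitters' processing notes name STAR, STARsolo, edgeR and the mm10 build, without versions or roles. Reads were not collapsed to molecules: a single row and well held up to 147279.

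Members were matched by the symbol in the row name. Shares, depth-matched shares, mean CPM + 10 ratios and co-detection were computed with Python 3.11.15, pandas 2.3.3, numpy 2.4.6 and SciPy 1.17.1. The code for share differences was run on simulated reads, with planted genes set to detection in every chosen cell. The drawn-down share was checked against exact values. The mean CPM + 10 ratios and co-detection were not checked on simulated data. Depth matching took the 5 nearest cells in log number of genes. Intervals and the limit for a count of 0 (3 counts of the total) cover counting error only. Named genes were the 4 members, list genes detected in at least 10% of cells, some of the list genes detected in none, and the 5 genes most like each member. List genes detected in under 10% of cells (among them Adm, Crcp, Pcsk1, Pcsk7, Cpe, Nmur1, Vipr2 and Il13) were named after their values were seen. Members and lists were chosen with earlier results of these data known. No doublet caller was run on sorted single cells. Gene coordinates are those of GENCODE M21.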

Additional observations from a re-analysis of the deposited data

Results flagged for a closer look

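Members were also detected in non-photoconverted wells that did not pass as cells, for too few genes or too many mitochondrial reads, and were used in no comparison. Of 53 such wells, 3 (5.66%) held Calca at 16 reads or more, with 48, 51 and 124 reads, against 0.905% of empty wells. Calcrl was detected in 1 of the 53 (1.89%), with 76 reads, and Ramp3 in 1 (1.89%), with 17 reads, against 0 of 221 empty wells for each. None of the 4 photoconverted wells that did not pass held a member at 16 reads.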

How the results depend on the processing

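The difference in share, photoconverted minus depth-matched, was computed under 17 alternatives per gene and stayed positive in all 17 for Calca, Ramp1 and Ramp3 and in 16 for Calcrl. Calcrl turned to -5 points at a limit of 64 reads. Leaving out 1 photoconverted cell at a time gave 25.7 to 42.9 points for Calca, 14.3 to 37.1 for Calcrl, 2.86 to 20 for Ramp1 and 22.9 to 48.6 for Ramp3. The log2 ratio of mean CPM then ran from -0.21 to 1.00 for Calca, from -0.63 to 1.75 for Calcrl, from 0.65 to 1.38 for Ramp1 and from 0.28 to 1.22 for Ramp3, and for Calcrl it was 2.31 without depth matching and 0.09 from summed reads. The signs of Calca and Calcrl rest on photoconverted cells 2 and 5. Drawing down to 1000 reads per cell used another measure, the expected share of cells with at least 1 read. Its differences were 26.7, 5.72, 5.59 and 4.08 points for Calca, Calcrl, Ramp1 and Ramp3. Its shares were low for the receptor genes, such as 8.31% against 4.23% for Ramp3, so these points do not compare with those at 16 reads. Without the 2 photoconverted cells of red fluorescence under 3000, an alternative chosen after seeing the data, the differences in share at 16 reads were 26.7, 26.7, 6.67 and 33.3 points. No paired analysis was possible because 1 plate was used and its colours have no replicates. With detection at 16 reads and 5 nearest cells, the interval of each of the 4 photoconverted shares took in the matched share. Among the exceptions were Ramp1 and Ramp3 at 64 reads (37.5% of photoconverted against 7.5% of matched cells for both) and Calca with 2 nearest cells (75% against 31.2%).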

Other observations

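The products of the cells were looked at beside the members. Of 10 listed effector genes 5 were measured, and all 5 had a higher share in photoconverted than in depth-matched cells. A higher share was found for 54.4% of all genes. The difference was 25 points or more for 4 of the 5, where 12.5% of all genes were that much higher. Among these, Il4 was detected in 9.18% of non-photoconverted cells and reached the 10% limit only through the photoconverted cells. Its place in these counts thus follows in part from the limit, and Il13, which was lower, fell under it. Il5, the interleukin-5 gene, was detected in 7 of 8 photoconverted cells against 47.5% of depth-matched cells, and Csf2 in 6 of 8 against 45%. Cxcl2 was found in 6 of 8 against 37.5%, Il4 in 3 of 8 against 12.5% and Areg in 7 of 8 against 72.5%. Il13, the interleukin-13 gene, was detected in 0 of 8 photoconverted cells, against 20% of depth-matched and 8 of 98 non-photoconverted cells. A count of 0 in 8 cells allows a share of up to 37.5%. Among photoconverted cells Il5 was found in 6 of 6 cells with Calca and 1 of 2 without. In non-photoconverted cells it was found in 13 of 37 cells with Calca, against 24.9% of depth-matched cells without it.

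The following pairs were chosen after their values were seen. Areg, the amphiregulin gene, was detected in 25 of 27 non-photoconverted cells with Ramp3, against 60.7% of depth-matched cells without Ramp3. It was found in 5 of 5 photoconverted cells with Ramp3 and in 2 of 3 without. The other receptor parts went the other way in non-photoconverted cells, with an Areg difference of -46.7 points around Calcrl and -8.57 points around Ramp1. Around Calca it was 5.95 points. Kit, the stem cell factor receptor gene, was detected in 5 of 6 non-photoconverted cells with Calcrl, against 6.67% of depth-matched cells without it. It was found in 3 of 4 photoconverted cells with Calcrl and in 2 of 4 without. No other mast cell or basophil marker on the list had a row, so the part of such cells was not tested.

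The 2 empty wells with Calca held 61 Calca reads of 659 reads of genes and 86 Calca reads of 416, with 93 and 131 genes. Neither held a read of Calcrl, Ramp1 or Ramp3.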
